A study of Mus musculus with 2 samples.

Results

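Madcam1 is 1 of the 32285 gene rows in the deposited matrices of endothelial cells from mouse lymph nodes. It was selected on measured values, namely its difference between mesenteric and peripheral nodes, so its levels across nodes and cell subsets are given as a description with no test. Genotype comparisons of Madcam1, and node comparisons of other genes, were tested. The row was followed through 9275 cells from 2 libraries, of which 296 were high endothelial cells. These cells were chosen by their content of at least 20 Glycam1 and 10 Ccl21a transcripts, counted as unique molecular identifiers (UMIs).

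Each library was a single-cell RNA preparation of sorted endothelial cells in which 4 antibody hashtags marked 4 pools: peripheral node cells of WT mice (HT4), mesenteric node cells of WT mice (HT5), peripheral node cells of Xbp1-KO mice (HT6) and mesenteric node cells of Xbp1-KO mice (HT7). Tamoxifen is the treatment recorded for both libraries, and so for WT and Xbp1-KO alike. The labels give no Cre line, deleted exon, sex, age or number of animals, and the peripheral nodes were pooled before digestion. The 8 pools (2 libraries of 4) are the units compared, with 2 pools for each node and genotype; nothing states that the libraries came from separate animals, so the spread between them may be partly technical.

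The kept cells numbered 6648 in library 1 and 2627 in library 2, from 33024170 and 14744778 UMIs over all barcodes, and the libraries shared 2 cell barcodes. Xist, which is transcribed from the inactive X chromosome of females, was found in 1.29% and 1.77% of WT cells but 82.5% and 73.1% of Xbp1-KO cells in library 1, and the order was opposite in library 2 (85.4% and 76.8% of WT cells, 0.608% and 0.114% of Xbp1-KO cells; peripheral first in each pair). Both nodes of a genotype within a library had the same Xist state. Genotype and Xist state thus crossed between the libraries, and their parts in a difference within 1 library cannot be told apart. Floor-type lymphatic-like cells of Xbp1-KO pools held less Xbp1 in peripheral nodes, at 41.7 and 49.0 CPM (UMIs of the gene scaled to a fixed total per pool, as counts-per-million) against 142 and 144 in WT, a log2 change of -1.72 ± 0.23 (SE; edgeR quasi-likelihood, adjusted p = 4.74e-04). In mesenteric floor-type cells Xbp1 stood at 99.97 and 42.6 CPM in WT and 48.4 and 53.3 in Xbp1-KO pools, libraries 1 and 2 in order, which did not pass (log2 difference -0.83 ± 0.31, edgeR adjusted p = 0.549); the WT pool of library 2, with 5 UMIs in 18 cells, lay below both Xbp1-KO pools and goes against its label. In high endothelial cells Xbp1 transcripts were found in all 8 pools (111 to 483 CPM) and neither node passed the test (log2 change -0.68 ± 0.44 mesenteric and -0.46 ± 0.59 peripheral). The 3' tags need not cover the deleted part of the gene, so they check the labels only in part.

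MAdCAM-1 is an adhesion protein with immunoglobulin domains and a mucin-like stretch, displayed by high endothelial venules of gut-draining lymphoid tissue, where it binds the integrin α4β7 of gut-homing lymphocytes. High endothelial venules are the vessels through which blood lymphocytes enter a lymph node; those of peripheral nodes instead display sulfated sugars on mucins, the peripheral addressin, which binds L-selectin. Madcam1 is also known in lymphatic endothelial cells of the subcapsular sinus floor. Its promoter carries NF-kB sites that respond to inflammatory cytokines and lymphotoxin signalling, and the homeobox factor Nkx2-3 is needed for its expression in gut-associated vessels.

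The gene (ENSMUSG00000020310) lies on the plus strand of chromosome 10 at chr10:79664559-79668537 in GRCm38 (GENCODE M21), with 5 exons in its longer transcript and 4 in its shorter one. The 250 bases before the start site, chr10:79664309-79664558 on the plus strand in the RefSeq table of GRCm38.p6, are shown because regulators known to act at this promoter were compared between the nodes. Capitals mark matches to the NKX2 core AAGTG and, after it, to the NF-kB consensus.

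Madcam1 promoter: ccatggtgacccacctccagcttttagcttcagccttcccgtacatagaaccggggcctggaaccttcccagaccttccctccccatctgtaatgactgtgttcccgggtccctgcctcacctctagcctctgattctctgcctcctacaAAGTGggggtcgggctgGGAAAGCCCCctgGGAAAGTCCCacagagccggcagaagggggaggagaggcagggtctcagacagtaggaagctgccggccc

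The NF-kB consensus was matched at 2 places on the minus strand, from -83 to -74 and from -70 to -61 relative to the start. At least 1 such match lay in 4.51% of all 32851 promoter windows of 300 bases searched on both strands, and at least 2 in 0.941%. AAGTG was matched once, from -100 to -96 on the plus strand, and occurs in 46.4% of windows. The nuclear receptor half-site AGGTCA (in 16.3% of windows) and ACGTG, the core of sites for XBP1 (in 19.6%), had no match in the Madcam1 window. A match describes the letters and is not evidence of binding.

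In mesenteric nodes, Madcam1 was a transcript of high endothelial cells. The mesenteric pools held 2632 (WT, library 1), 3523 (Xbp1-KO, library 1), 3723 (WT, library 2) and 3590 CPM (Xbp1-KO, library 2), a mean of 3367 ± 497 (SD, n = 4 pools, 256 cells). The peripheral pools held 0 CPM (WT, library 1; 3 cells), 20.7 (Xbp1-KO, library 1; 29 cells), 149 (WT, library 2; 5 cells) and 0 (Xbp1-KO, library 2; 3 cells), a mean of 42.5 ± 71.8 (n = 4 pools, 40 cells). Every mesenteric pool lay above every peripheral pool, and the ratio of the means was 79.3. With 3 cells a pool, the 2 peripheral pools at 0 UMIs allow up to 162 and 167 CPM each (3 UMIs of the total, counting error only). That limit lies below every mesenteric pool but takes the cells of a pool as alike. By share of cells, 0 of 3 allows up to 70.8% with a UMI (exact binomial 95% interval). This covers the 55.2% to 70.1% of the mesenteric pools, so these 2 pools cannot show a lower share.

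The peripheral value rests on few molecules and on how cells were assigned to a hashtag. Only 3 of the 40 peripheral high endothelial cells held Madcam1, with 1, 4 and 8 UMIs, and the cell with 8 was a WT cell of library 2 with 580 HT4 tags and at most 2 of any other. Without library 1 the ratio was 49.0, and without library 2 it was 297. With each cell thinned to 2000 UMIs it was 119. With thresholds of 10 Glycam1 and 5 Ccl21a UMIs it was 79.0, and with 50 and 25 it was 77.3. Without the WT peripheral pool of library 2 alone, the log2 ratio was 8.93 against 6.31 with all pools. When the hashtag was instead taken as the highest of the 4 wherever it exceeded the second 3-fold, 6 peripheral cells were added, all of them called as carrying several tags by the main method; 2 of the 6 brought 58 and 44 Madcam1 UMIs, with 1904 and 183 tags of HT7 (mesenteric) beside 7386 and 1291 of HT4. The WT peripheral pools then stood at 1749 and 679 CPM, and the ratio between nodes was 5.41. The doublet caller Scrublet marked neither of these 2 droplets, while it marked 25.5% and 4.62% of all several-tag barcodes in libraries 1 and 2. Whether these 2 droplets each held cells of both nodes was not tested.

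**Figure D1:**
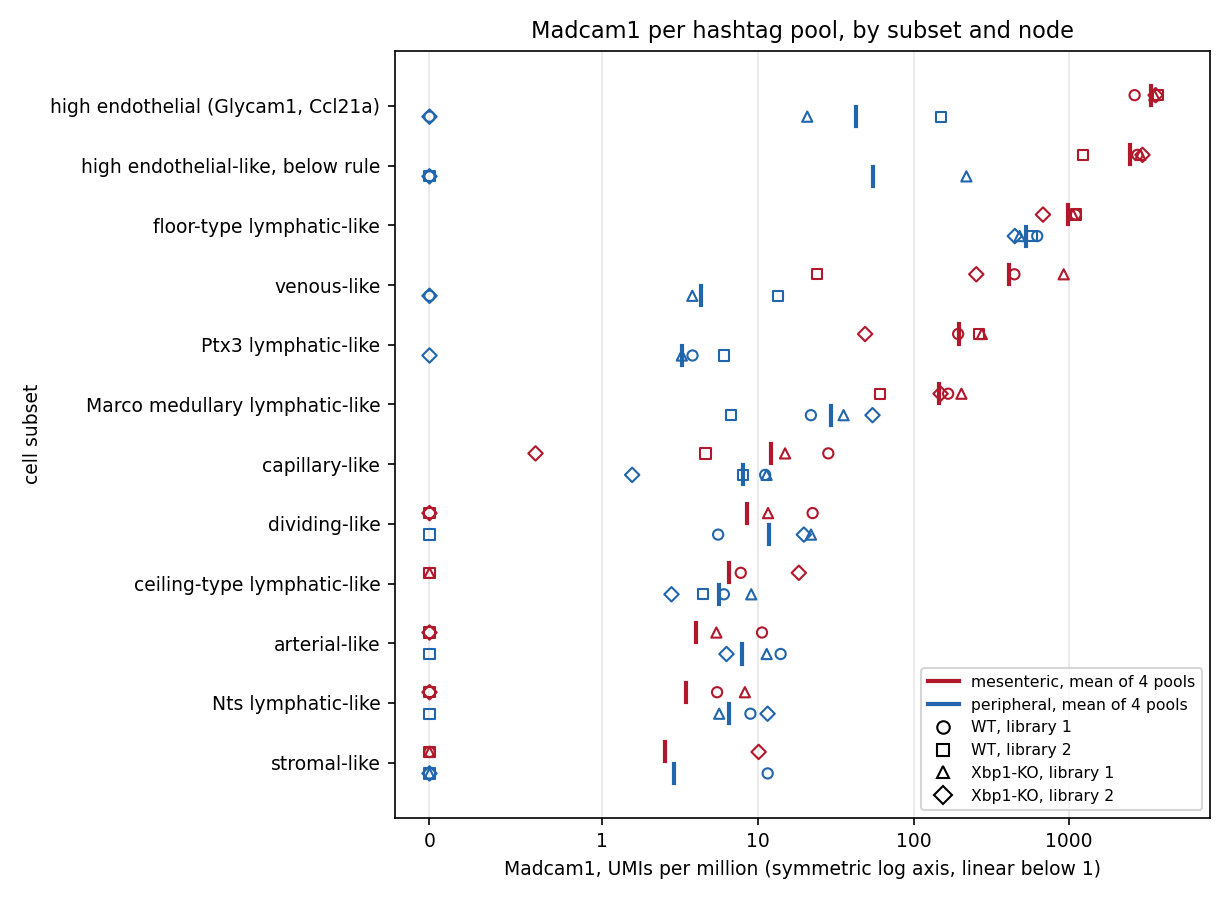
Madcam1 in CPM for each of the 8 hashtag pools (open symbols; shape gives genotype and library) by cell subset, on a symmetric log axis, with vertical bars at the mean of 4 pools per node. Mesenteric high endothelial pools sit between 2632 and 3723, while floor-type lymphatic-like cells are the only subset whose peripheral pools all exceed 400 (447 to 623).

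Within mesenteric high endothelium the gene was uneven from cell to cell. Of 256 cells, 92 (35.9%) held no Madcam1 UMI, 40 held 1 to 9, 55 held 10 to 49, 36 held 50 to 99 and 33 (12.9%) held 100 or more, with a maximum of 204. The gene was detected in 64.1% of cells (median depth 9329.5 UMIs), and in 56.1% of 255 cells after each was thinned to 2000 UMIs. Cells with a UMI made up 55.2% (exact binomial 95% interval 42.6 to 67.4) and 56.4% of the WT pools, and 70.1% and 69.8% of the Xbp1-KO pools, libraries 1 and 2 in order. In peripheral high endothelium 7.5% of cells held a UMI (interval 1.57 to 20.4; median depth 7693 UMIs), and 2.56% after thinning. Arterial-like cells, which are not known for this gene, served as a comparison level, and free RNA in the droplets was not measured. They held a Madcam1 UMI in 1.37% of mesenteric and 2.55% of peripheral cells (median depth 2464 and 2192.5 UMIs). After thinning the shares were 0% and 1.79%, over the 246 of 365 and 168 of 274 cells deep enough to thin.

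**Figure D2:**
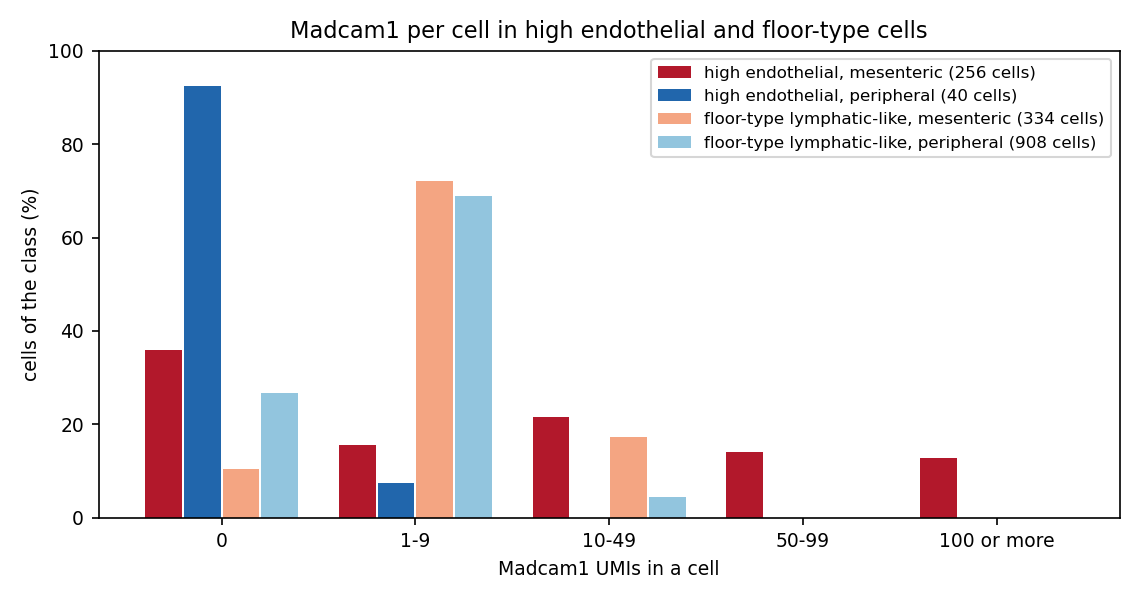
Share of cells (%) by the number of Madcam1 UMIs in a cell, for high endothelial cells (dark bars) and floor-type lymphatic-like cells (light bars) of mesenteric (red) and peripheral (blue) nodes. Mesenteric high endothelial cells spread from 0 (35.9%) to 100 or more UMIs (12.9%), while 72.2% of mesenteric floor-type cells hold 1 to 9.

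In mesenteric nodes the summed Madcam1 level was higher in blood endothelial cells with 10 or more Glycam1 UMIs, in the 12 cells just below the threshold of 20 as well as above it. Among mesenteric blood endothelial cells, the summed level was 76.1 CPM in the 1409 cells without Glycam1 and 226 in the 960 with 1 to 9 UMIs. It was 2655 in the 12 with 10 to 19, just below the Glycam1 threshold, and 3351 in the 23 with 20 to 39, just above it. The bins are cut on Glycam1 alone, so part of the cells above that threshold lacked the 10 Ccl21a UMIs of the chosen cells. The level of the 10 to 19 bin came from 4 of its 12 cells, each with 10 or more Madcam1 UMIs. Above 39 UMIs the level was 3937 CPM for 40 to 199 Glycam1 UMIs, 3694 for 200 to 999 and 2776 for 1000 or more. In peripheral nodes the 21 cells with 1000 or more Glycam1 UMIs, which held all 13 Madcam1 UMIs of peripheral high endothelium, reached 60.1 CPM, and the bins from 10 to 999 held none. Glycam1 encodes a secreted mucin that carries the peripheral addressin, and cells rich in it were present in both nodes.

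**Figure D3:**
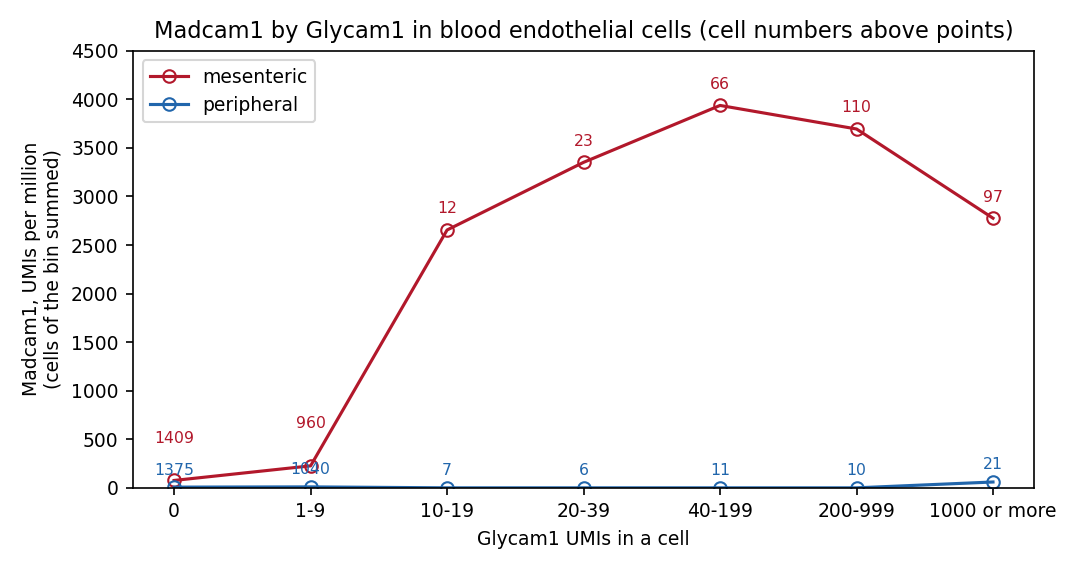
Madcam1 in CPM, summed over the blood endothelial cells of each Glycam1 bin, for mesenteric (red) and peripheral (blue) nodes, with the number of cells above each point. The mesenteric line runs from 76.1 in cells without Glycam1 to 3937 in cells with 40 to 199 UMIs, and the peripheral line stays at or below 60.1.

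Madcam1 in mesenteric blood vessels reached beyond the chosen cells. The remaining 103 mesenteric cells of the high endothelial-like cluster, which fell short of the threshold, held 2444 ± 821 CPM (pools 1220 to 2956), and their pools overlapped those of the chosen cells. The 13 peripheral cells of this kind held 1 Madcam1 UMI. Venous-like cells, the vessels that border high endothelium, held 444, 921, 23.9 and 253 CPM in the mesenteric pools (WT and Xbp1-KO of library 1, then of library 2), a mean of 411 ± 381. The WT pool of library 2, with 13 cells, had only 2 UMIs there. Few cells carried the venous-like value: 109 of the 145 mesenteric cells held no UMI, 27 held 1 to 9, 8 held 10 to 49 and 1 held 56. The 172 peripheral venous-like cells held 2 UMIs in all, a mean of 4.31 ± 6.35 CPM. The nodes were unequally represented within the class. A finer cluster named venous-like, led by Vwf, Cytl1 and Selp, held 377 CPM in 103 mesenteric cells (pools 30.6 to 762) and 10.2 (1 UMI) in 27 peripheral cells. Outside the chosen cells, a finer cluster led by Aqp1, Atp1b1 and Enpp2 held 351 CPM in 85 mesenteric cells and 3.62 in 354 peripheral cells. Its mesenteric pools ranged from 0 to 962 CPM, and 9.41% of its mesenteric cells held a UMI. Capillary-like cells, the largest subset, averaged 12.1 ± 12.4 CPM in mesenteric and 8.01 ± 4.57 in peripheral pools, which overlapped, and arterial-like cells 4.0 ± 5.09 and 7.91 ± 6.17, also overlapping.

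Floor-type lymphatic-like cells, named from Coch, Bmp2, Ccl20, Itga2b and Csf1, carried Madcam1 in both nodes. Mesenteric pools held 1100 (WT) and 1056 CPM (Xbp1-KO) in library 1 and 1106 and 678 in library 2. Peripheral pools held 623 and 480 in library 1 and 573 and 447 in library 2. The mesenteric mean of 985 ± 206 was 1.86 times the peripheral mean of 531 ± 81.4 (n = 4 pools each), and the pools did not overlap, although the lowest mesenteric pool (678) was close to the highest peripheral one (623). Of mesenteric floor-type cells 89.5% held at least 1 UMI (334 cells) and of peripheral ones 73.3% (908 cells), and after thinning to 2000 UMIs 73.6% and 50.7%. No floor-type cell exceeded 25 UMIs in mesenteric or 19 in peripheral nodes, so the lymphatic level was spread over most cells rather than concentrated in a few.

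The floor-type gap between nodes was narrower or of opposite sign within each of 3 finer clusters. At a clustering resolution of 2, the cells led by Ccl20, a chemokine, and Coch, a sinus matrix protein, held 991 CPM in 306 mesenteric cells and 873 in 123 peripheral cells, with overlapping pools (705 to 1172 and 713 to 966). Peripheral cells were more numerous in 2 other clusters. In the cluster led by C1ql3, Postn and Mmp9 the level was 327 CPM in 12 mesenteric and 450 in 423 peripheral cells, and in an unnamed one led by Col14a1, Postn and Msr1 it was 675 in 14 and 509 in 360. The finer clusters were built from the same cells without Madcam1. Genes were not left out for differing between nodes, and the part of such genes in the clusters was not tested.

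Of the other lymphatic subsets, the Ptx3 and Marco classes held Madcam1 mainly in mesenteric nodes. Ptx3 lymphatic-like cells held 193 and 274 CPM (WT and Xbp1-KO) in library 1 and 262 and 48.8 in library 2 in mesenteric nodes, from 3 to 25 cells a pool, and at most 6.04 CPM in any peripheral pool. Marco medullary lymphatic-like cells, which line the medullary sinuses, averaged 145 ± 60.4 CPM in mesenteric and 29.6 ± 20.3 in peripheral pools; the lowest mesenteric pool (60.6, from 6 cells and 3 UMIs) was near the highest peripheral one (54.4, all 11 UMIs in 1 cell). At resolution 2, a cluster led by Marco, Mt1 and Flrt3 held 193 CPM in 146 mesenteric and 59.2 in 115 peripheral cells. A cluster led by Marco, Lyve1 and Clec1b held no UMI in 28 mesenteric cells and 19 UMIs in peripheral cells (13.5 CPM). Ceiling-type lymphatic-like cells, on the outer wall of the subcapsular sinus, averaged 6.51 and 5.57 CPM, and Nts lymphatic-like cells 3.42 and 6.52 (mesenteric, peripheral), with overlapping pools and close to the means of arterial-like cells.

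The subsets were thus ordered differently in each node. In mesenteric nodes the order was high endothelial, high endothelial-like below the threshold, floor-type, venous-like, Ptx3 and Marco lymphatic-like, and only the step from the second to the third had pools that did not overlap. In peripheral nodes floor-type cells came first, separated from all other subsets. Of 13026 Madcam1 UMIs in mesenteric cells, 65.3% came from high endothelial cells by threshold (6.78% of cells), 15.7% from the rest of that cluster and 13.8% from floor-type cells. Of 2845 in peripheral cells, 92.8% came from floor-type cells (16.5% of cells), 2.57% from Marco cells and 0.457% from high endothelial cells.

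Among 14 listed regulators of Madcam1 and inputs to NF-kB, 10 could be tested between the nodes in high endothelial cells, and edgeR called 2 higher in mesenteric cells, Nkx2-3 and Nr2f2, and DESeq2 called 0. The list was chosen with earlier results of these data known, and Nkx2-3 passed the count filter only through the mesenteric pools, so the count of 2 is a description. Over all 4880 genes tested, 9 (0.184%) were higher in mesenteric cells and 6 (0.123%) lower at adjusted p under 0.05 (edgeR quasi-likelihood, Benjamini-Hochberg), and 406 had an unadjusted p under 0.05. Madcam1 counts among the 9 because the fit covers the whole table, and since it was selected on this difference nothing is read from its place there. The list's median log2 difference was -0.03, beside 0.27 over all genes. The other 8 members, among them Ltbr, the lymphotoxin receptor, and Relb and Nfkb2, the NF-kB subunits it engages, had log2 differences between -0.75 and 0.60 and did not pass.

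Nkx2-3, the homeobox factor, held 36.5 and 54.4 CPM (WT, Xbp1-KO) in library 1 and 63.7 and 59.0 in library 2 in mesenteric high endothelial cells, from 134 UMIs in all, and no UMI in any of the 4 peripheral pools. Against the level that 3 UMIs over all peripheral high endothelial cells would give, the mesenteric mean of 53.4 ± 11.9 was at least 5.90-fold higher. The edgeR adjusted p was 0.00509, but Nkx2-3 entered the fit only through the mesenteric pools, so its call adds little to these counts. That limit is over the group (331356 UMIs in 40 cells); taken pool by pool, 3 UMIs would give 12.4 CPM in the Xbp1-KO peripheral pool of library 1 but 55.9 to 167 in the other 3, above the mesenteric mean, so the bound rests mainly on that 1 pool. With 0 UMIs in every remaining peripheral pool, the call was lost without the Xbp1-KO peripheral pool of library 1 (adjusted p = 0.106), without the WT peripheral pool of library 2 (0.115). It was also lost under the looser hashtag rule (edgeR adjusted p = 0.197), where the fitted log2 difference was 3.91 against 7.22 in the main fit. The main value was fitted against 0 peripheral UMIs. DESeq2 gave no adjusted p.

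Nr2f2, a nuclear receptor of venous and lymphatic endothelium, held 177, 199, 169 and 207 CPM in the mesenteric pools (WT and Xbp1-KO of library 1, then of library 2) and 0, 58.0, 37.3 and 0 in the peripheral ones. The 2 peripheral pools at 0 hold 3 cells each, where 3 UMIs would give 162 and 167 CPM, close to the lowest mesenteric pool. The groups did not overlap, with a log2 difference of 2.21 ± 0.52 (edgeR adjusted p = 0.0090, 16 UMIs in peripheral cells). This call was the less stable one: it held in 10 of 18 fits, the main one included, with adjusted p from 0.00125 to 0.641, and it was lost without the WT mesenteric pool of library 1 (0.0744), the Xbp1-KO mesenteric pool of library 1 (0.0520), the WT mesenteric pool of library 2 (0.0503), the WT peripheral pool of library 1 (0.144) or that of library 2 (0.0793), and with DESeq2 (0.355), thinned cells (0.291) or the looser hashtag rule (0.641). The log2 difference in these fits was 1.95 to 5.43 with a pool left out, 2.17 with DESeq2, 4.18 with thinned cells and 1.17 under the looser rule. In the high endothelial-like cluster below the threshold, Nr2f2 stood at 215 ± 28.9 CPM in mesenteric and 180 ± 130 in peripheral pools. These pools overlapped, and the peripheral value came from 12 UMIs in 13 cells.

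Neither factor followed Madcam1 through all subsets. Nkx2-3 was found in the other mesenteric blood vessel subsets too, with 59.8 ± 11.2 CPM in capillary-like, 84.1 ± 39.3 in arterial-like and 101 ± 39.8 in venous-like cells, beside 0.536 ± 0.756, 15.5 ± 31.1 and 0 in peripheral ones. The peripheral arterial-like value came from 6 UMIs in the WT pool of library 2 (62.1 CPM), which lay above the lowest mesenteric pool (41.3). Mesenteric stromal-like cells held 219 ± 174 CPM of Nkx2-3, with Madcam1 near 0. It had no UMI in floor-type, ceiling-type or Ptx3 lymphatic-like cells of either node, though floor-type cells carry Madcam1 in both; in 908 peripheral floor-type cells the limit that 0 UMIs allow is 0.599 CPM. Nr2f2 was present in floor-type cells of both nodes, at 461 ± 90.5 CPM in mesenteric and 631 ± 37.8 in peripheral pools, the opposite order to Madcam1. In venous-like cells it had the order of Madcam1, at 199 ± 61.1 CPM in mesenteric and 51.5 ± 45.4 in peripheral pools, without overlap. Ptx3 (835 and 773 CPM) and Marco lymphatic-like cells (929 and 838) had that order too, with overlapping pools.

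Within mesenteric high endothelium, cells with more Madcam1 more often held Nkx2-3. Among the 243 mesenteric cells chosen by threshold that also lay in the high endothelial-like cluster, Nkx2-3 was found in 9.52% of the 84 cells without Madcam1, 18.9% of the 37 with 1 to 9 UMIs and 51.6% of the 122 with 10 or more, at median depths of 8566.5, 8459 and 9516.5 UMIs. By pool, Nkx2-3 was at 0 to 32.7 CPM in cells without Madcam1 and at 77.1 to 108 in cells with 10 or more, which did not overlap. Nr2f2 was found in 61.9%, 59.5% and 78.7% of the same classes. Other genes went the other way: Chst4 was found in 51.2%, 56.8% and 36.9% (156, 191 and 98.9 CPM) and Chst2, a further sulfotransferase of the addressin, stood at 184, 159 and 105 CPM. The classes were cut on Madcam1 itself and share the cells' libraries, so these shares are a description.

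**Figure D4:**
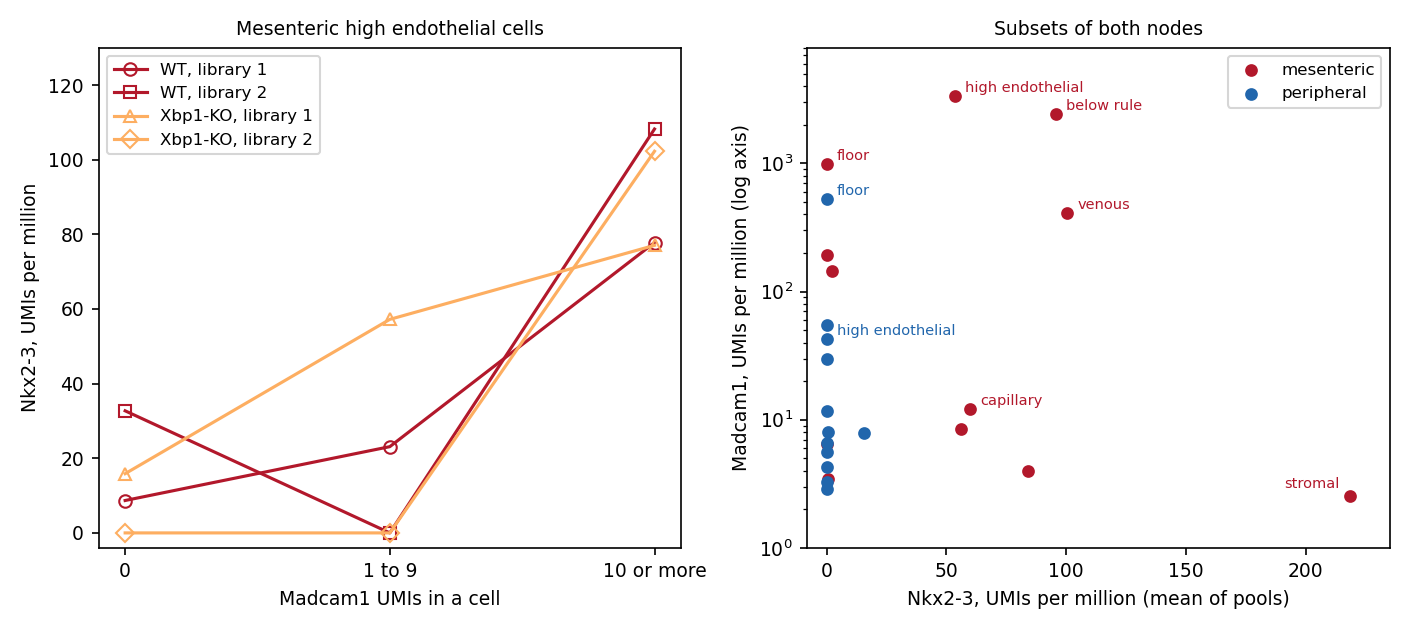
Left, Nkx2-3 in CPM in mesenteric high endothelial cells grouped by their Madcam1 UMIs, 1 line for each of the 4 pools; all 4 pools lie between 77.1 and 108 in cells with 10 or more. Right, mean Madcam1 (log axis) against mean Nkx2-3 for each subset, mesenteric in red and peripheral in blue; floor-type cells have Madcam1 with no Nkx2-3, and mesenteric stromal-like cells the reverse.

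The other listed genes of lymphocyte entry were not called between the nodes. Of the adhesion and scaffold molecules 13 of 15 could be tested, of the enzymes that build the peripheral addressin 8 of 12, of the attractants 6 of 11 and of the retinoic acid genes 4 of 15, and none was called in either direction by edgeR or by DESeq2. At an unadjusted p under 0.05, edgeR gave 1 adhesion molecule, 0 enzymes, 0 attractants and 1 retinoic acid gene. Their median log2 differences were -0.04, 0.11, 0.16 and 0.68, beside 0.27 over all genes tested. Examples that did not pass were Fut7, the fucosyltransferase of the addressin (-0.02), Chst4, its sulfotransferase (0.24), Vcam1, an adhesion protein of the same family (-0.57), and Stra6, a retinol transporter (1.72). The 40 peripheral cells limit what this comparison can detect. The genes with the lowest p outside the lists, named after their values were seen, were the heat shock genes Hspa1a, at 261 to 695 CPM in mesenteric and 0 to 111 in peripheral pools (edgeR adjusted p = 4.29e-10), and Hspa1b, at 214 to 698 and 0 to 111 (adjusted p = 4.49e-10). Heat shock genes are known to respond to tissue handling, and they moved with the same node difference as Madcam1, Nkx2-3 and Nr2f2; their part in it was not tested.

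Markers of other cell types were low in high endothelium of both nodes. The summed level of 11 lymphocyte genes was 79.3 to 149 CPM in mesenteric and 0 to 216 in peripheral pools, with Ltb in the lead; all 11 had a UMI in mesenteric and 5 in peripheral cells. Of 11 reticular and mural stroma genes, 5 had a UMI in mesenteric and 3 in peripheral cells (40.5 to 96.6 and 0 to 168 CPM), and Pdgfra, Pdgfrb, Col1a1, Acta2 and Lum were at 0 in both. Of 6 macrophage genes only Cd68 was found. In floor-type cells the lymphocyte list reached 834 to 1072 CPM in mesenteric and 612 to 841 in peripheral pools, led by Ltb, with Cd3e and Trbc2 at 0 in both; the reticular and mural stroma list, led by Rgs5 and Bst1, reached 657 to 900 and 482 to 597 CPM, with no overlap and in the order of Madcam1. The part of such RNA in the Madcam1 difference was not tested.

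Pools labelled Xbp1-KO were compared with WT pools in each node. XBP1 is a transcription factor that answers stress in the endoplasmic reticulum and widens the secretory capacity of a cell. In mesenteric high endothelial cells Madcam1 averaged 3177 ± 772 CPM in WT and 3557 ± 46.8 in Xbp1-KO pools (SD, n = 2 each). It was higher in Xbp1-KO in library 1 and slightly lower in library 2, with a log2 difference of 0.17 ± 0.50 that did not pass (edgeR adjusted p = 0.9997, where 8 of 4880 genes, 0.164%, were called). Of the listed genes only 2 attractants were called there, both higher in Xbp1-KO: Cxcl9 (log2 2.57 ± 0.42, edgeR adjusted p = 1.07e-05) and Cxcl10 (1.65 ± 0.41, adjusted p = 0.0479), chemokines induced by interferon.

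The share of mesenteric high endothelial cells with a Madcam1 UMI was higher in Xbp1-KO in both libraries, also after thinning (43.3% and 53.8% in WT, 60.8% and 65.4% in Xbp1-KO). Below the threshold it was 42.9% and 35.7% in WT and 77.8% in both Xbp1-KO pools, with levels of 2740 and 1220 CPM against 2861 and 2956. These shares were not tested, and 2 pools a genotype could not reach significance in an exact permutation test.

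In peripheral high endothelial cells the comparison set 0 and 8 Madcam1 UMIs in WT against 5 and 0 in Xbp1-KO. Each genotype thus had 1 pool with counts and 1 at 0, and Madcam1 entered the fit through the mesenteric pools, so nothing about genotype is read from it. The fitted log2 difference was -2.17 ± 1.06 (edgeR adjusted p = 0.849; 0 of 4880 genes, 0%, were called by edgeR, with 273 at an unadjusted p under 0.05, and 0 by DESeq2, with 105 unadjusted) and turned to 6.12 without the WT pool of library 2. Under the looser hashtag rule, which added the 2 cells with 58 and 44 UMIs to WT, it became -5.65 and was called (edgeR adjusted p = 1.57e-06). That call rests on these 2 several-tag droplets and is not read as a genotype difference. The genotype effect in mesenteric minus that in peripheral cells was 2.34 ± 1.17 (edgeR adjusted p = 0.997; 1 of 4880 genes, 0.0205%, was called, namely Cxcl10 at 3.74 ± 0.82 with adjusted p = 0.0352). The peripheral pools held 3 and 13 Cxcl10 UMIs in WT and 11 and 0 in Xbp1-KO, so that call rests on few molecules too. For Madcam1 the difference of the effects turned to -5.94 without that same WT pool and was called at 5.86 under the looser rule (adjusted p = 4.25e-05).

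In floor-type lymphatic-like cells Madcam1 was lower in Xbp1-KO than in WT in all 4 pairs of pools, without passing the test. In mesenteric nodes the means were 1103 ± 4.79 CPM in WT and 867 ± 267 in Xbp1-KO, a log2 difference of -0.39 ± 0.21 (edgeR adjusted p = 0.756; 24 of 8491 genes, 0.283%, were called). In peripheral nodes they were 598 ± 35.1 and 463 ± 23.3, a log2 difference of -0.40 ± 0.21 (edgeR adjusted p = 0.9999; 3 of 8491 genes, 0.0353%, were called). The 2 peripheral pairs differed alike, by -0.38 in library 1 and -0.36 in library 2, and the mesenteric ones by -0.06 and -0.71. Ccl20 was the listed gene called there, lower in peripheral Xbp1-KO pools at 295 and 413 CPM against 1005 and 852 in WT (log2 -1.43 ± 0.25, edgeR adjusted p = 0.0164). In mesenteric floor-type cells Ccl20 stood at 1229 and 562 CPM in WT and 1313 and 1303 in Xbp1-KO pools, higher in Xbp1-KO in both libraries, and was not called.

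**Figure D5:**
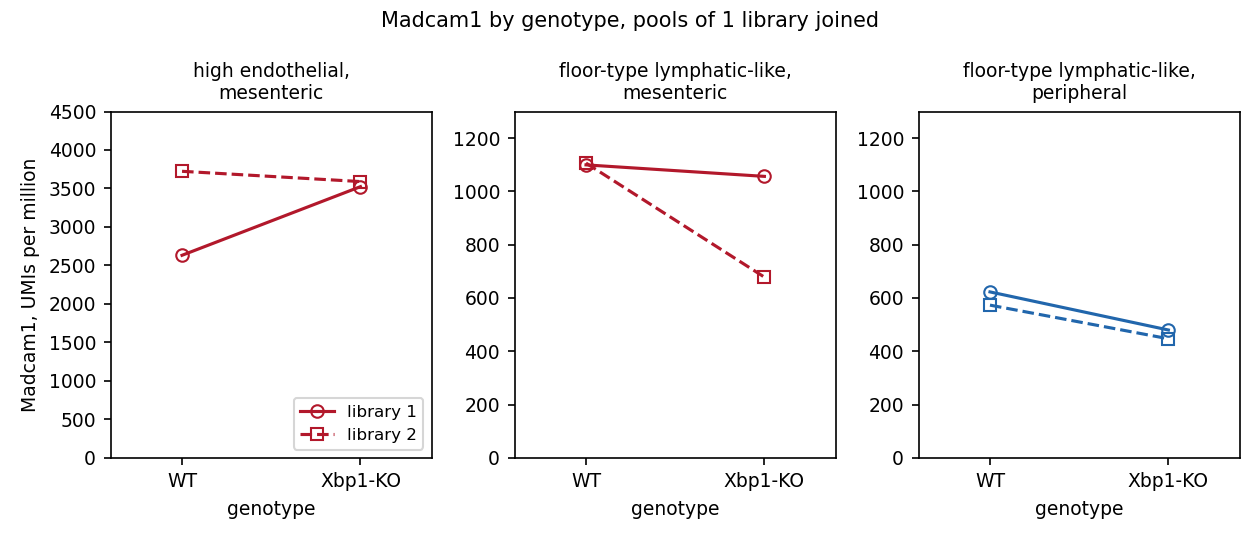
Madcam1 in CPM by genotype, with the WT and Xbp1-KO pools of 1 library joined by a line, in mesenteric high endothelial cells (left, 2632 to 3723), mesenteric floor-type cells (middle, 678 to 1106) and peripheral floor-type cells (right, 447 to 623). All lines go down from WT to Xbp1-KO in both floor-type panels, and the lines go opposite ways in high endothelial cells.

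Genes whose levels were most like Madcam1 were ranked over 72 sums of at least 20 cells (subset, library and pool; 11363 genes, Pearson r of log2(CPM + 10)). The first 10 were Tcerg1l (r = 0.88), Dennd2d (0.87), Psmb7, a proteasome subunit (0.86), Nxph1 (0.85), Glycam1 (0.84), Spint2, a serine protease inhibitor (0.83), Hs3st6, a heparan sulfate sulfotransferase (0.81), Reg3g, an antibacterial lectin (0.79), Ehd3 (0.79) and Slc16a9 (0.79). Glycam1 helped choose the high endothelial cells, so its rank is partly set by how the sums were made. All 10 had transcripts in high endothelial and floor-type cells of mesenteric nodes. Psmb7 held 1109 ± 527 CPM in mesenteric and 1001 ± 813 in peripheral pools, and Spint2 544 ± 58.9 and 628 ± 141, so neither showed the gap between nodes that Madcam1 has in these cells. Nkx2-3 ranked 677th (r = 0.32) and Nr2f2 967th (0.26). Only 5 of the 72 sums were of high endothelial cells and 1 of these was peripheral, so the ranking holds little of the node gap in these cells. The sums share libraries and differ in depth.

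Over the 8 high endothelial sums alone (3147 genes) the first 5 were Lrrc32 (r = 0.98), Slco3a1 (0.97), Smad4 (0.97), Brd7 (0.96) and Erap1 (0.96), with Nkx2-3 13th (0.95) and Nr2f2 16th (0.94). These 8 sums are 4 from each node, so the ranking restates the node gap on which Madcam1 was selected, and genes that differ between the nodes rank high by construction. Slco3a1, an organic anion transporter, held 179 ± 14.0 CPM in mesenteric and 66.8 ± 14.3 in peripheral pools. The other 4 had at most 127 UMIs over the 8 sums, and several peripheral sums hold few cells, where a gene of that level is often at 0.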

How the data were processed

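Both libraries were deposited by the authors as whole-number UMI counts per gene and barcode, with 4 hashtag rows; Cell Ranger 6.0.1 made them per the file headers, while the submitters' processing notes give version 6.1 and mm10. The labels name the sorted cells as endothelial after CD45 depletion. The counts of 38 symbols with several identifiers were summed. Hashtags were assigned with HTODemux (Seurat 5.3.0, positive quantile 0.99); barcodes with several tags or none were left out, as were those under 500 genes or above 10% mitochondrial counts, and 65 and 4 doublets marked by Scrublet (scanpy 1.11.5), which marked 25.5% and 4.62% of the several-tag barcodes. Cells were clustered (Leiden, 30 components, resolution 1) without Madcam1, Glycam1, Ccl21a, Xbp1 or sex genes, and clusters were named from marker lists, so names are rebuilt here. Depth was 3655 and 4319 UMIs per barcode (medians).

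Counts were summed per pool, and genotype and node contrasts were fitted over the 8 sums with edgeR 4.0.16 (TMM, quasi-likelihood, Benjamini-Hochberg, adjusted p threshold 0.05; R 4.3.3), tested first on simulated data. DESeq2 1.42.0, other thresholds, hashtag rules, thinning, a library block and left-out pools were alternatives. Library numbers name a shared 10x reaction; the labels do not say whether pools of a library share animals. Named genes are Madcam1, Xbp1, Nkx2-3, Nr2f2, list members called in a contrast, and the first 10 (all sums) and 5 (high endothelial sums) most like Madcam1; Ltbr, Relb, Nfkb2, Fut7, Chst4, Chst2, Vcam1, Stra6 and the markers quoted were picked as examples after their values were seen. The gene and the lists were chosen with earlier results of these data known. Intervals and limits cover counting error only, and p-values measure only the spread between these pools. Coordinates come from GENCODE M21 and promoter windows from RefSeq, both on GRCm38.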

Additional observations from a re-analysis of the deposited data

Results flagged for a closer look

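Barcodes with several hashtags or none, left out of the main comparisons (the looser hashtag rule took in some with several), also carried Madcam1, in each case above the level that 3 UMIs would give. Those called with several hashtags held 571 CPM in library 1 (3010 UMIs in 685 barcodes) and 389 in library 2 (406 UMIs in 130), and 74 and 12 of them met the high endothelial threshold. Those with no hashtag held 8.02 CPM in library 1 (4 UMIs in 238 barcodes) and 21.1 in library 2 (5 UMIs in 83), near the limits of 6.02 and 12.7 CPM. The main assignment gives them no node or genotype, and the source of their Madcam1 was not tested.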

How the results depend on the processing

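Values that rest on peripheral high endothelial cells moved with hashtag assignment and with single pools. Under the looser hashtag rule the peripheral genotype difference in high endothelial cells was -5.65 and the difference between nodes of the genotype effect 5.86, both called on 2 several-tag droplets, and the log2 ratio between nodes was 2.44 against 6.31; 7 genes were called between the nodes against 15. With DESeq2 8 genes were called, and with thinned cells 6. Leaving out a library, or a single pool (chosen after seeing the data), gave a log2 genotype difference of -0.23 to 0.62 in mesenteric and -8.68 to 6.47 in peripheral high endothelial cells, -5.94 to 8.45 for the difference of the effects, -0.74 to -0.07 in mesenteric and -0.46 to -0.35 in peripheral floor-type cells, a log2 ratio between nodes of 5.62 to 8.93 in high endothelial and 0.81 to 1.04 in floor-type cells, and, for single pools, 6 to 42 called genes. The highest count came without the Xbp1-KO peripheral pool of library 1, 29 without that of library 2, and the lowest without the WT peripheral pool of library 2. The causes were not tested. Fits that leave out a whole library have no residual degrees of freedom and are values with no test; the lone pool left by a single omission is assumed to vary like the others.

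With library as a replicate block the genotype differences were 0.22 and -1.99 in mesenteric and peripheral high endothelial cells, 2.21 between them, and -0.39 and -0.39 in floor-type cells. The block changed no Madcam1 call, and 21 genes were called between the nodes. Peripheral high endothelial cells, 40 in all, limit every comparison that uses them.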
